A study of Mus musculus with 6 samples.

Results

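Neural crest and Dlx genes were followed by RNA sequencing of second heart field tissue, cut from mouse embryos of embryonic day 9.5. The group holds 10 genes chosen by symbol, the transcription factor genes Sox9, Sox10, Tfap2a, Tfap2b, Twist1 and Foxd3 and the homeobox genes Dlx1, Dlx2, Dlx5 and Dlx6. All 10 were among the 16832 genes of the deposited table, and all 10 passed the filter on low values, which asks for 10 or more normalized counts on average. The control samples have the genotype CTRL Mef2c-Cre and the gain-of-function (GoF) samples the genotype Hoxb1GOF;Mef2c-Cre, so that both groups carry Mef2c-Cre, a transgene whose recombinase is active in the second heart field. The GoF samples also carry a gain-of-function allele of Hoxb1, a homeobox gene of the posterior second heart field. The series lists 3 samples in each group, and the table has columns for control replicates 2 and 3 and for GoF replicates 1, 2 and 3. Control replicate 1, the remaining sample, was not analysed here. Neither pooling of embryos nor separate dissection of the replicates is stated in the labels, so each p-value measures the spread between these libraries, which may be technical.

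The neural crest is a population of cells that leaves the dorsal neural tube, moves into the pharyngeal arches and the outflow tract of the heart, and gives rise there to mesenchyme, smooth muscle, neurons and glia. Tfap2a and Tfap2b encode AP-2 factors that act at the border of the neural plate and in crest cells. Foxd3 and Sox10 encode factors of early and migrating crest, Sox9 a relative of Sox10 that is also needed for cartilage, and Twist1 a basic helix-loop-helix factor of head mesenchyme. Dlx genes pattern the crest mesenchyme of the pharyngeal arches along its upper to lower axis, and lie in the genome as pairs that face each other. Several of these genes are also active elsewhere, Tfap2a and Dlx3 in surface ectoderm and Sox9 in the neural tube and endoderm.

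The 4 Dlx genes are close relatives that share a homeobox. The homeobox is shown here to see how alike the genes are in it, as reads can be split between genes where stretches are near-identical. The sequences are the 180 bases that encode the homeodomain, read 5′ to 3′ in GENCODE M21 transcripts (build GRCm38), and capitals mark the 106 positions (58.9%) at which all 4 genes have the same base.
Dlx1: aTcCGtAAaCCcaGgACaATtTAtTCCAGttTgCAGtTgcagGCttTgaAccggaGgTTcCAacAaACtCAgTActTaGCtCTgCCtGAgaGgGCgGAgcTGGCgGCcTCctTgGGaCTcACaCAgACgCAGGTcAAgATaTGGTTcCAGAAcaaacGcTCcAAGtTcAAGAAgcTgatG
Dlx2: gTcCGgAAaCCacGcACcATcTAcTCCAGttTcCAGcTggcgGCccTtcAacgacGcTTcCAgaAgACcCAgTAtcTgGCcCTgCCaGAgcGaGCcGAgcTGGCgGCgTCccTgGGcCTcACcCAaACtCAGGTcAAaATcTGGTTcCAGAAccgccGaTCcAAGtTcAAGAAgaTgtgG
Dlx5: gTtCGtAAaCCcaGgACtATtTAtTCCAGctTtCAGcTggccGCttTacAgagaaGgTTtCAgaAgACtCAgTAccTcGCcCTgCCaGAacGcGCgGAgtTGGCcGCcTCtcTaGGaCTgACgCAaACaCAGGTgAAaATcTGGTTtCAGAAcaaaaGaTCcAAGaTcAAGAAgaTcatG
Dlx6: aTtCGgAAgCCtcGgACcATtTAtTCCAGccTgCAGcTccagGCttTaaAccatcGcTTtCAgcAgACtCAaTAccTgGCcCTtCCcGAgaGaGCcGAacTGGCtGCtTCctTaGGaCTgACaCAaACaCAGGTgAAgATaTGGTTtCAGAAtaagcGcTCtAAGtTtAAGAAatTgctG
No pair was near-identical in this stretch, with base identity from 71.1% (Dlx2 and Dlx6) to 76.7% (Dlx1 and Dlx6). Dlx1 and Dlx6 encode homeodomains with 58 of 60 residues in common, and Dlx2 and Dlx5 with 56 of 60. Over the longest transcripts, the longest exact run shared by a pair was 23 bases, between Dlx2 and Dlx6. Splitting of reads between the genes was not tested.

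The libraries held 34260116 to 44384354 reads, of which 44.4% and 50.7% in the controls and 35.7% to 37.4% in GoF fell on mitochondrial genes. Hoxb1, the gene raised by the design, had 751.6 and 610.2 normalized counts (reads divided by 1 size factor per library) in control replicates 2 and 3, and 1021.3, 1003.0 and 1041.2 in GoF replicates 1, 2 and 3. It was 1.51-fold higher in GoF (log2 fold change 0.59, SE 0.12, limma adjusted p = 0.0147). It did not pass once GoF replicate 1 was left out (adjusted p = 0.0601), nor after removal of the trend on transcript GC content (log2 fold change 0.26, adjusted p = 0.251). Log2 fold changes followed transcript GC content across all genes (Spearman rho = 0.565, a description over genes that share the same libraries). Over 9082 genes averaging 200 counts or more, the SD of GoF replicate 1 about the mean of replicates 2 and 3 came to 0.279 of the SD of their difference. Independent libraries of equal spread would give a larger value, so GoF replicate 1 may not be a separate replicate. The GoF SDs and the limma p-values treat it as separate and may therefore be too small, and the cause was not tested. The tissue held markers of the second heart field, with Isl1 at 707.5 to 731.2 counts and Mef2c at 4978.4 to 5533.0 over the 5 libraries, and Fgf8 was not analysed here. It also held neural tube genes, with Sox1 at 2175.1 to 2592.4 and Pax6 at 1155.3 to 1442.2. In such bulk tissue, fewer cells of a type and less RNA per cell cannot be told apart.

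Levels per kilobase of the longest transcript, averaged over the 5 libraries, differed widely among the members. Twist1 was at 542.0 normalized counts per kilobase, Sox9 at 458.5, Tfap2a at 345.3 and Tfap2b at 293.4. Dlx5 (178.4) and Sox10 (168.5) came next. The level per kilobase was 18.7 for Dlx1, 16.7 for Dlx2, 13.3 for Foxd3 and 12.1 for Dlx6. Dlx5 was therefore the Dlx member with most RNA in this tissue, and Foxd3, Dlx2 and Dlx6 had few reads, with 13 to 47, 6 to 55 and 4 to 40 reads per library.

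The GoF and control libraries were compared to see which members respond to the Hoxb1 allele. Of the 10 members, 2 rose in GoF, Sox9 and Tfap2a, none fell, and 8 did not pass the test (limma on log2(normalized count + 1), Benjamini-Hochberg adjusted p under 0.05 over 16794 genes). At an unadjusted p under 0.05, 3 members were higher (Sox10 as well) and 0 lower, and edgeR and DESeq2 called 0 lower. Over all genes tested, 23.2% were called, 12.2% higher and 10.9% lower, and the 2 of 10 members higher are to be read against that background (edgeR called 12.4% higher and 10.0% lower, DESeq2 13.2% and 13.3%). Every GoF library stood above both controls for 4 members, Sox9, Sox10, Tfap2a and Foxd3, a pattern seen in 27.3% of all genes tested, and below both controls for 0, against 27.6% of all genes. All GoF libraries lay between the 2 controls for 4 members, Twist1, Dlx2, Dlx5 and Dlx6, against 11.7% of all genes. The median log2 fold change was 0.64 over the 10 members and -0.01 over all genes tested. With the GC trend removed, the median of the 6 crest factors went from 0.59 to 0.08, and that of the 4 Dlx members from 0.64 to 0.36. With the GC trend removed 1 member rose and 1 fell, where 3.11% of all genes were called higher and 3.33% lower.

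**Figure D1:**
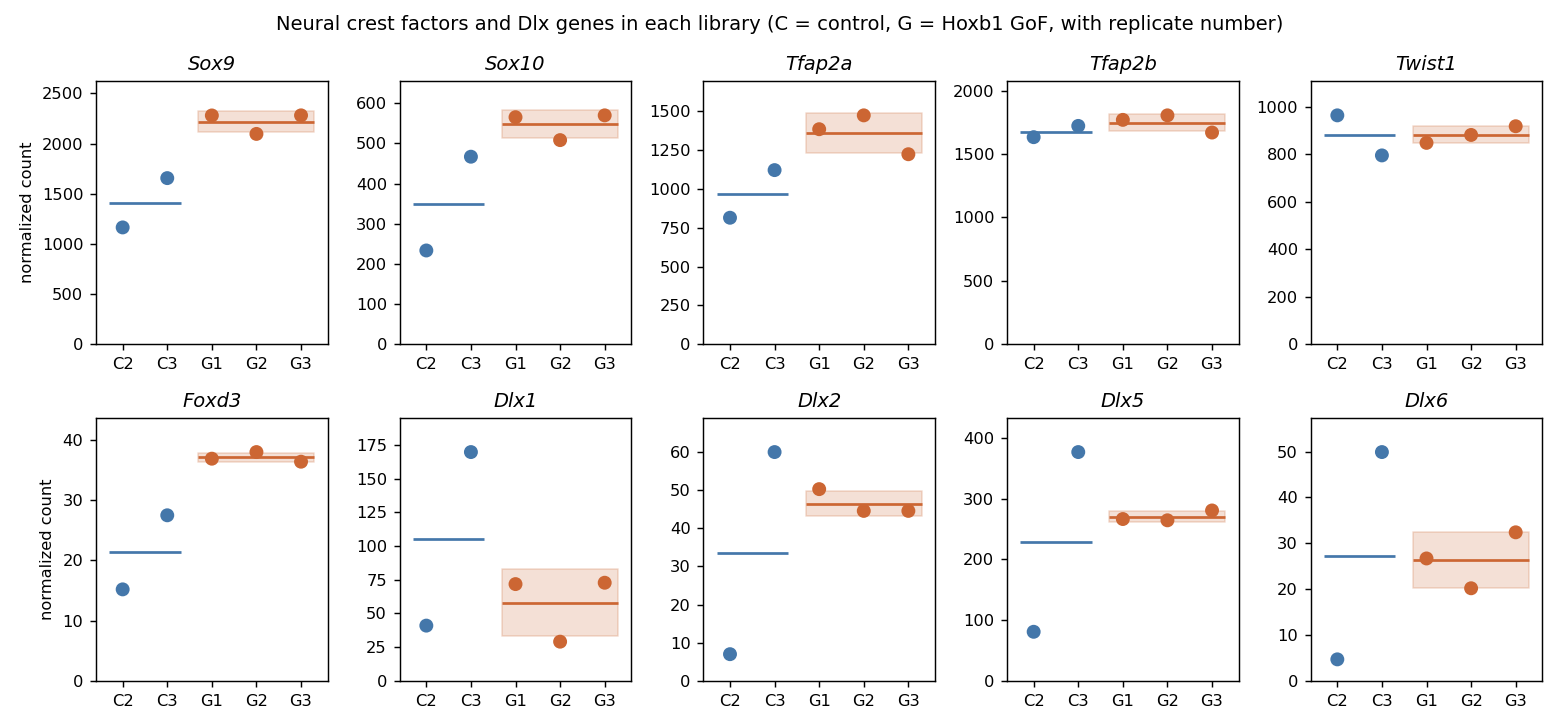
Normalized counts of the 10 members in each library, with control replicates 2 and 3 (blue, C2 and C3) and GoF replicates 1 to 3 (orange, G1 to G3), group means as lines and 1 SD of the 3 GoF libraries as a band. Sox9, Sox10, Tfap2a and Foxd3 have every GoF library above both controls, and the 4 Dlx genes have a low C2 and a high C3.

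Sox9 (GRCm38 chromosome 11, 112782224 to 112787760, forward strand, 3 exons) had 1164.3 and 1655.9 normalized counts in control replicates 2 and 3, and 2280.5, 2096.5 and 2281.5 in GoF replicates 1, 2 and 3. The GoF libraries lay close together, at 2219.5 ± 106.5 (SD, n = 3), and all stood above the higher control. Sox9 was 1.60-fold higher in GoF (log2 fold change 0.68, SE 0.15, limma adjusted p = 0.0174). The rise was 1.91-fold against control replicate 2 and 1.34-fold against control replicate 3. The gene passed without each of the 5 libraries in turn, with adjusted p from 0.00431 to 0.0417. It passed with the GC trend removed (log2 fold change 0.63, adjusted p = 0.0416), but not with GoF replicate 1 also left out (0.61, adjusted p = 0.124). The authors' deposited table gives it a log2 fold change of 0.65 and an adjusted p of 0.00040.

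Sox10 (chromosome 15, 79154908 to 79165240, reverse strand), the crest and glial relative of Sox9, had 233.3 and 466.7 counts in control replicates 2 and 3. Its GoF libraries were at 565.0, 508.0 and 569.6. The GoF mean was 2.35 times control replicate 2 but 1.17 times control replicate 3. The log2 fold change was 0.73 with an SE of 0.26, and the gene did not pass (limma adjusted p = 0.0776). DESeq2 on the recovered reads put it just inside the threshold (adjusted p = 0.0473), as does the authors' deposited table (0.04999), and edgeR put it outside (0.103). The Sox10 transcript has a GC content of 61.8%, and with the GC trend removed its log2 fold change was -0.01 (SE 0.24, adjusted p = 0.985). The transcripts of Sox9 and Tfap2a, at 49.3% and 48.7%, kept their values in that setting.

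Tfap2a (chromosome 13, 40715302 to 40738376, reverse strand) had 814.9 and 1121.8 counts in the controls, against 1385.3, 1474.5 and 1224.1 in GoF. The groups did not overlap, and the GoF mean was 1.67 times control replicate 2 and 1.21 times control replicate 3. Tfap2a rose 1.42-fold (log2 fold change 0.50, SE 0.15, limma adjusted p = 0.0475). This call was lost in 10 of 17 alternative settings, among them the one without GoF replicate 1 (adjusted p = 0.115) and the GC trend removal (log2 fold change 0.50, adjusted p = 0.0792), and edgeR gave an adjusted p of 0.0501. Without control replicate 2 the log2 fold change was 0.27 (adjusted p = 0.151). Exons of Tfap2a overlap antisense gene models by up to 7.8% of their length, and the strand setting of the counting is not given in the sources used here.

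The close relative Tfap2b (chromosome 1, 19208914 to 19238576, forward strand) was level across the libraries. It had 1633.3 and 1722.1 counts in the controls, against 1769.8, 1805.3 and 1669.9 in GoF, with overlapping groups. Its log2 fold change was 0.06 (SE 0.09, limma adjusted p = 0.655), and over 17 alternatives it ran from 0.02 to 0.17. Twist1 (chromosome 12, 33957671 to 33959829, forward strand) had 965.0 and 796.1 counts in the controls, with the GoF libraries between them at 849.0, 882.4 and 919.1. Its log2 fold change was 0.01 (SE 0.12, adjusted p = 0.956). The Twist1 transcript has a GC content of 59.3%, and removal of the GC trend put the gene at -0.63 (SE 0.14, adjusted p = 0.0435), the one setting in which a member was called lower.

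Foxd3 (chromosome 4, 99656299 to 99658622, forward strand, a single exon) had 15.2 and 27.5 counts in the controls, against 36.9, 38.0 and 36.4 in GoF. The GoF libraries were nearly equal and all above the controls. With 13 and 22 reads behind the control values, the log2 fold change of 0.83 (SE 0.41) did not pass (limma adjusted p = 0.173). Foxd3 has the highest GC content of the members, 65.1%, and its log2 fold change was -0.02 with the GC trend removed (adjusted p = 0.984).

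The Dlx genes showed another picture, in which the controls themselves stood far apart. Dlx5 (chromosome 6, 6877805 to 6882085, reverse strand) had 80.9 counts in control replicate 2 and 376.9 in control replicate 3. Its GoF libraries lay between them at 266.6, 264.5 and 280.7, or 270.6 ± 8.8 (SD, n = 3). The controls thus differed 4.66-fold while the GoF libraries varied by 3.3% of their mean. The log2 fold change of 0.63 has an SE of 0.56 and did not pass (limma adjusted p = 0.440), and 0 of the 4 Dlx members passed by edgeR or DESeq2 or at an unadjusted p under 0.05. The median log2 fold change of the 4 was 0.64 in limma, which averages log values, and 0.13 in edgeR and 0.10 in DESeq2, which average counts.

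Dlx6 (chromosome 6, 6863334 to 6868568, forward strand), its partner in the pair, had 4.7 and 49.9 counts in the controls, from 4 and 40 reads, and 26.7, 20.2 and 32.4 in GoF. Dlx2 (chromosome 2, 71543408 to 71546754, reverse strand) had 7.0 and 59.9 in the controls, from 6 and 48 reads, and 50.2, 44.5 and 44.5 in GoF. Both had every GoF library between the controls, which differed 10.6-fold for Dlx6 and 8.51-fold for Dlx2. Their log2 fold changes, 0.66 (SE 0.86) and 1.10 (SE 0.75), did not pass (limma adjusted p = 0.595 and 0.309).

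Dlx1 (chromosome 2, 71528113 to 71533981, forward strand) differed from the other 3 within the GoF group. It had 41.0 and 169.7 counts in the controls, against 71.8, 29.1 and 72.8 in GoF replicates 1, 2 and 3. GoF replicate 2 was thus the lowest library of all, from 36 reads, and the other GoF libraries lay between the controls. The GoF spread of Dlx1, 43.1% of the mean, compared with 7.2% for its neighbour Dlx2. Its log2 fold change was -0.64 (SE 0.62, limma adjusted p = 0.478).

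All 4 Dlx members stood over 4-fold higher in control replicate 3 than in its partner, with log2 differences of 2.02 for Dlx1, 2.21 for Dlx5, 2.92 for Dlx2 and 3.16 for Dlx6. Such a difference was seen in 1.54% of all genes tested, and in 1.78% of the 8393 genes with a mean of 20 to 300. The 4-fold line was chosen with these values in view, the controls are single libraries, and no test was made of this difference. Of the 6 crest factors, none differed by that much, and Sox10 came nearest with a 2.0-fold difference. Twist1 alone among the 10 members was lower in control replicate 3, by 0.28.

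**Figure D2:**
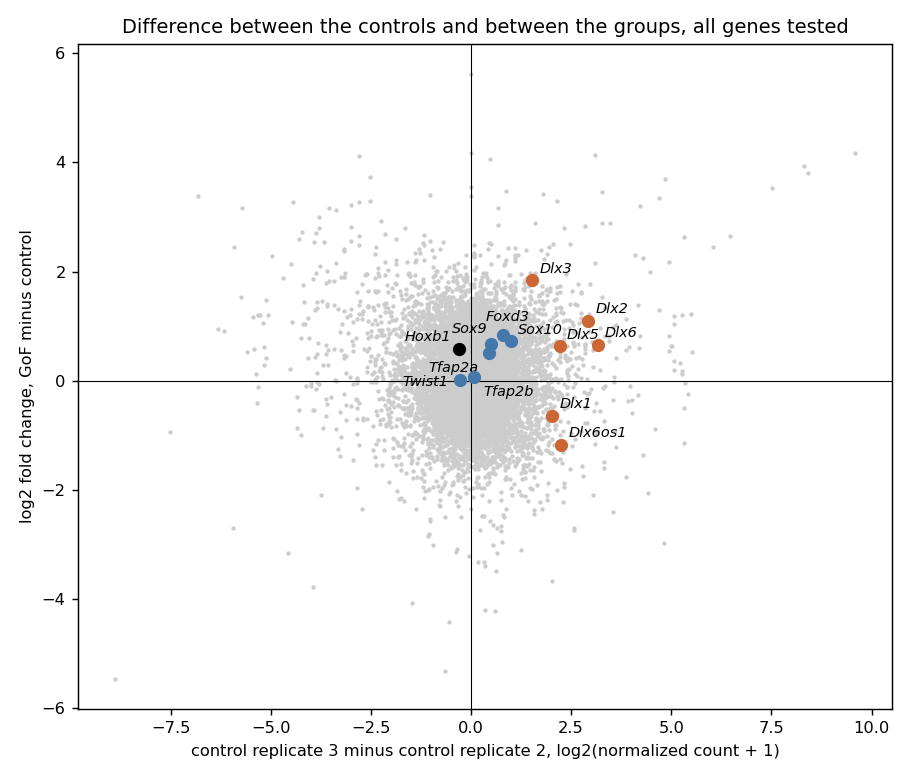
Log2 difference between control replicate 3 and control replicate 2 (horizontal) against the log2 fold change of GoF over control (vertical) for all 16794 genes tested (grey), with crest factors in blue, Dlx genes and Dlx6os1 in orange and Hoxb1 in black. The 4 Dlx members lie at 2.02 or more on the horizontal axis, while the crest factors lie between -0.28 and 1.0.

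Because of this, the outcome for the Dlx members depended on which control was kept. Without control replicate 3, Dlx2, Dlx5 and Dlx6 were called higher in GoF, with log2 fold changes of 2.56, 1.73 and 2.24 (limma adjusted p = 0.00745, 0.00411 and 0.0248), and 7 of the 10 members were called higher, Sox10 (1.23, adjusted p = 0.00489) and Foxd3 (1.23, adjusted p = 0.0420) among them. Without control replicate 2 the same genes stood at -0.36, -0.48 and -0.92 and did not pass (adjusted p = 0.349, 0.0549 and 0.143), and Sox9 was the one member called higher. In each of these fits the lone control is assumed to vary like the GoF libraries. Dlx1 was at -1.65 against control replicate 3 and at 0.37 against control replicate 2, and passed in neither.

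**Figure D3:**
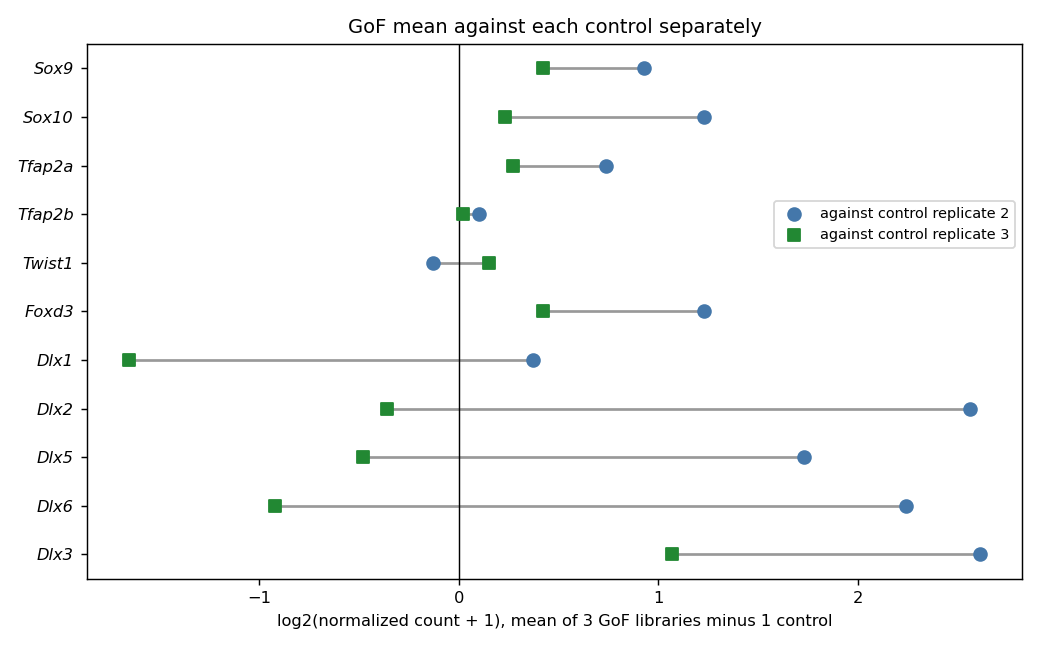
Mean log2(normalized count + 1) of the 3 GoF libraries minus that of control replicate 2 (blue circles) or control replicate 3 (green squares), for the 10 members and Dlx3. Both marks lie to the right of 0 for Sox9, Sox10, Tfap2a, Tfap2b, Foxd3 and Dlx3, and to either side of it for Twist1 and for Dlx1, Dlx2, Dlx5 and Dlx6.

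Dlx3, a further family member known from surface ectoderm and the lower part of the arches, had 10.6 and 32.4 counts in the controls, against 79.0, 59.9 and 70.4 in GoF. It rose 3.58-fold (log2 fold change 1.84, SE 0.47, limma adjusted p = 0.0289) and had every GoF library above both controls. The control values rest on 9 and 26 reads, and the call was lost without any 1 of the GoF libraries (adjusted p from 0.0682 to 0.0900) and with the GC trend removed (1.34, adjusted p = 0.107). Dlx4, the neighbour of Dlx3, was not analysed here.

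Both Dlx pairs have an antisense RNA in the table. Dlx6os1 (chromosome 6, 6820189 to 6871592, reverse strand), the locus of a noncoding RNA made from the enhancer region of the Dlx5 and Dlx6 pair, spans Dlx6 but shares no exon base with it. It had 17.6 and 87.4 counts in the controls, against 24.6, 7.3 and 26.7 in GoF (log2 fold change -1.17, SE 0.79, limma adjusted p = 0.309). Like Dlx1, it was highest in control replicate 3 and lowest in GoF replicate 2, where it rests on 9 reads. Dlx1as (chromosome 2, 71516454 to 71537891, reverse strand) shares 335 bases with the exons of Dlx1, which is 20.6% of its own exon length, so that without a strand setting reads there cannot be told apart. It went the other way between the controls, with 89.1 and 44.9 counts, and had 97.4, 100.3 and 73.6 in GoF (0.49, SE 0.34, adjusted p = 0.313).

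**Figure D4:**
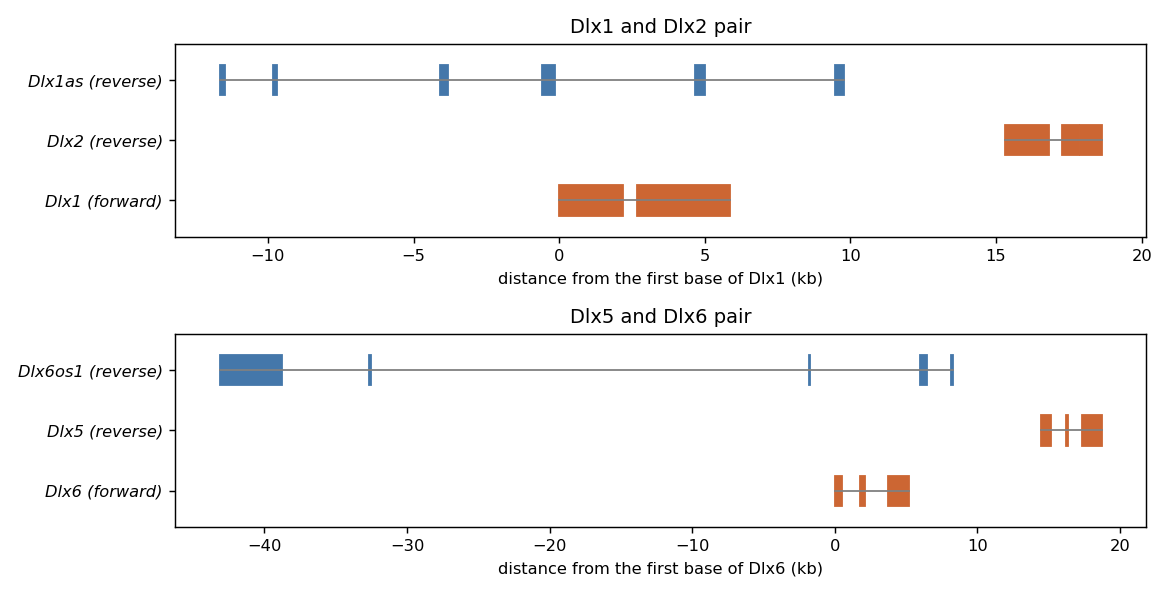
Exons (boxes) of the Dlx1 and Dlx2 pair and of the Dlx5 and Dlx6 pair with their antisense RNAs, by distance in kilobases from the first base of Dlx1 and of Dlx6, with the strand beside each name. The genes of a pair face each other across 9426 bases (Dlx1 and Dlx2) and 9236 bases (Dlx5 and Dlx6), and Dlx6os1 spans Dlx6 without sharing an exon base.

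Promoter sequence, the 250 bases before a listed transcription start, was in the RefSeq table (build GRCm38.p6) for 6 of the 10 members. The entries for Sox9, Sox10, Dlx5 and Dlx6 are missing. Shown are 1 of 2 windows of Tfap2a, which was called, and the window of Dlx2, the Dlx member with such a sequence outside annotated exons. Both Tfap2a windows lie inside the gene as annotated (40715302 to 40738376), so their starts are internal ones. Capitals mark matches to 3 motifs, searched on both strands: TGATNNAT, bound by Hox and Pbx proteins together, TAATTA, a core bound by many homeodomain proteins, and GCCNNNGGC, the AP-2 site.
Tfap2a promoter, chr13:40734921-40735170, reverse strand: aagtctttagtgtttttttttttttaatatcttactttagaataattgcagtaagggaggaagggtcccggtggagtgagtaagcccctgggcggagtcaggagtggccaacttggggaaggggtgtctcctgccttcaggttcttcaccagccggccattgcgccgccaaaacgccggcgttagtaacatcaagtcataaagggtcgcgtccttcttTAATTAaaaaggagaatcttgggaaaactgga
Dlx2 promoter, chr2:71546755-71547004, reverse strand: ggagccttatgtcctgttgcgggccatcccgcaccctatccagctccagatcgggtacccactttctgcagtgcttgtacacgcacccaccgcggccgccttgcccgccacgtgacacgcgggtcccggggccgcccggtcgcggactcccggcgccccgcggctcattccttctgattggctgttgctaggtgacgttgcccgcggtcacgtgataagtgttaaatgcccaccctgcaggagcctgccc
The Tfap2a window shown holds 1 TAATTA, a palindrome that reads the same on both strands, at position -32 from its internal start. The other Tfap2a window (chr13:40733796-40734045, 60.4% GC) and the Dlx2 window hold none of the motifs. TAATTA was found in 4.8% of all 32851 windows, TGATNNAT in 7.7% and GCCNNNGGC in 13.7%. Among the members, TGATNNAT was found in the window of Foxd3. The Dlx2 window is rich in GC (66.4%, 24 CG pairs), and the Tfap2a window shown less so (47.6%, 10 CG pairs).

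Beyond the members, 86 genes of wider neural crest lists were measured, of which 10 rose, 12 fell and 64 did not pass, with a median log2 fold change of 0.09. The shares higher and lower are near those of all genes tested (12.2% and 10.9%). With the GC trend removed 4 rose and 6 fell, where 3.11% of all genes were called higher and 3.33% lower. Without GoF replicate 1, 5 rose and 4 fell. The lists were written with earlier results of these data known.

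Of 22 border and early crest factors, 3 rose and 6 fell, where 12.2% of all genes tested were higher and 10.9% lower. The counts were 1 and 3 without GoF replicate 1, 2 and 2 without GoF replicate 2, 1 and 4 without GoF replicate 3, 3 and 3 without control replicate 2, 5 and 7 without control replicate 3, and 1 and 3 with the GC trend removed. Id2, an inhibitor of basic helix-loop-helix factors, had 517.1 and 399.3 counts in the controls, against 750.6, 820.2 and 739.5 in GoF (log2 fold change 0.76, limma adjusted p = 0.0114). Zeb2, a zinc finger factor of the epithelial to mesenchymal transition, fell from 17676.5 and 15791.9 to 11157.4, 10138.0 and 12573.4 (-0.57, adjusted p = 0.0103). Sox5, which acts with Sox9 in cartilage, fell from 3246.6 and 2722.9 to 1898.0, 1728.5 and 2148.8 (-0.63, adjusted p = 0.0121). With the GC trend removed, Id2 (adjusted p = 0.0158) and Sox5 (0.0494) passed and Zeb2 (0.112) did not.

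Of 17 genes of crest mesenchyme and arch patterning, 2 rose and 2 fell, against 0 and 2 without GoF replicate 2 or 3, 5 and 2 without control replicate 2, 3 and 2 without control replicate 3, and 0 and 1 with the GC trend removed. Barx1, a homeobox gene of arch mesenchyme, was at 10.6 and 3.7 counts in the controls, with 3 reads in the lowest library. In GoF it was at 38.7 ± 2.0 (SD, n = 3), all above the controls (log2 fold change 2.42, limma adjusted p = 0.0211). Pou3f3 fell from 556.9 and 602.7 to 379.4, 373.7 and 336.6 (-0.67, adjusted p = 0.0130), and Prrx1, a homeobox gene of mesenchyme, from 2563.1 and 3062.3 to 1962.6, 2153.1 and 1865.7 (-0.49, adjusted p = 0.0192). Without GoF replicate 1 these calls were lost (adjusted p = 0.117, 0.0541 and 0.0634), and the list had no call. After GC trend removal, Pou3f3 passed (-0.83, limma adjusted p = 0.0161), while Barx1 (1.58, 0.127) and Prrx1 (-0.28, 0.192) did not.

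The endothelin axis in mouse sets Dlx5 and Dlx6 in the lower arch through the receptor Ednra. Of its 8 genes, 2 were higher and 2 lower, where 12.2% of all genes tested were higher and 10.9% lower. The counts were 2 and 0 without GoF replicate 1, 2 and 1 without GoF replicate 2 or 3, and 1 and 0 with the GC trend removed. Ece1, the enzyme that makes active endothelin, rose from 1898.3 and 2293.6 counts to 3860.6, 4238.3 and 3292.8 (log2 fold change 0.86, limma adjusted p = 0.00665). Gna11, a G protein subunit, rose from 342.4 and 416.8 to 725.0, 910.8 and 775.1 (1.08, adjusted p = 0.00533). Ednra itself fell from 3804.7 and 4317.7 to 3089.5, 2991.1 and 2888.3 (-0.44, adjusted p = 0.0142). With the GC trend removed, Ece1 passed (0.45, adjusted p = 0.0474), while Gna11 (0.53, 0.0521) and Ednra (-0.36, 0.0501) just missed. Without GoF replicate 1, Ednra was not called (limma adjusted p = 0.0518), while Ece1 (0.00769) and Gna11 (0.00575) were. The ligand gene Edn1 had 104.4 and 127.3 counts in the controls, against 155.9, 147.2 and 153.7 in GoF, and did not pass (adjusted p = 0.177).

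Of 17 receptor and migration genes, 2 rose and 2 fell, where 12.2% of all genes tested were higher and 10.9% lower. The counts were 2 and 1 without any 1 of the GoF libraries, and 2 and 0 with the GC trend removed. Ret, the receptor of enteric crest, rose from 352.9 and 369.4 counts to 738.3, 802.4 and 601.9 (log2 fold change 0.97, limma adjusted p = 0.00700). Cxcr4, a chemokine receptor, was at 69.2 and 122.3 in the controls and at 245.1, 236.2 and 245.1 in GoF (1.39, adjusted p = 0.0109). Cdh11, a cadherin of mesenchyme, fell from 12407.3 and 13386.0 to 9603.9, 9772.4 and 9414.9 (-0.43, adjusted p = 0.00860). Ret and Cxcr4 passed with the GC trend removed (adjusted p = 0.0243 and 0.0225), and Cdh11 did not (0.0742).

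Of 13 crest glia and autonomic neuron genes, 0 passed by limma, edgeR or DESeq2, and at an unadjusted p under 0.05 there were 2 higher and 2 lower. Without control replicate 2, 0 of these genes rose and 2 fell, and without control replicate 3, 3 rose and 0 fell. Of 8 cartilage genes that Sox9 is known to act on or with, Sox5 fell and 7 did not pass, while 3 fell with the GC trend removed, and 2 rose and 3 fell without control replicate 3. Col2a1, the collagen gene that Sox9 activates in cartilage, had 3492.9 and 4533.5 counts in the controls, against 4199.0, 4289.3 and 4272.6 in GoF (log2 fold change 0.10, SE 0.11, limma adjusted p = 0.558), so that its GoF libraries lay between the controls.

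Markers of other tissue in the dissection moved along with some members. Summed counts of 11 surface and pharyngeal ectoderm genes ran from 5791.0 to 6073.4 in the controls and from 7804.0 to 8277.7 in GoF. Much of that rise was Cldn6, which went from 1974.5 and 1597.3 to 2974.7, 3253.2 and 2637.5. Of the 11, 4 rose (Krt8, Krt18, Cdh1 and Cldn6), where 12.2% of all genes tested were called higher. The other 7 were not called, among them Grhl2 (log2 fold change 0.06), Esrp1 (0.20), Grhl3 (0.44) and Wnt6 (-0.14). Krt18 went from 136.0 and 185.9 to 329.2, 315.4 and 354.4. Trp63, which defines the surface ectoderm, had 209.9 and 443.0 in the controls, against 328.1, 280.7 and 330.9 in GoF, between the controls as for Dlx5, and Krt5 was at 0.0 in control replicate 3. Krt14 was not analysed here. None of the 11 was called with the GC trend removed, and 2 rose without GoF replicate 1 or 2. The part of ectoderm in the values of Tfap2a and Dlx3 was not tested.

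Between the controls, where the Dlx genes differed most, the other marker lists moved in both directions. The sum of 10 pharyngeal endoderm genes was 4899.9 in control replicate 2, 2910.1 in control replicate 3 and 3098.7 to 3443.3 in GoF, and 1 of them fell in GoF. Most of the difference between the controls was Shh, at 2370.8 and 884.7, and 3 of the 10 genes were higher in control replicate 3. The 10 neural tube and neuron genes came to 11376.7 and 11824.9 in the controls and 9454.5 to 9859.8 in GoF, most of it Nes, with 1 higher and 3 lower. The 11 second heart field genes summed to 15552.0 and 15833.1 in the controls and 15273.4 to 15926.0 in GoF, with 3 higher, Hoxb1 among them, and 1 lower. Summed cardiomyocyte genes (9) were at 283176.2 and 391607.7 in the controls and 183952.8 to 233151.3 in GoF, most of it Ttn, with 2 higher and 2 lower. The 9 endothelial genes came to 11448.2 and 9476.4 in the controls and 8717.7 to 9617.1 in GoF, with 2 higher (Cdh5 and Egfl7) and 2 lower (Emcn and Erg). Erg alone went from 4855.3 and 3545.2 to 2029.3, 1629.8 and 2344.6. The 8 blood genes summed to 11216.1 and 7031.8 in the controls and 13946.1 to 17870.2 in GoF, most of it Hba-x, with 2 higher. Over all genes tested, 12.2% were called higher and 10.9% lower, and these marker calls moved with the libraries used. Without GoF replicate 1, the calls higher and lower were 0 and 0 for endoderm, 0 and 1 for neural tube, 1 and 1 for second heart field, 2 and 1 for cardiomyocytes, 1 and 1 for endothelium and 1 and 0 for blood. Blood had 0 higher without GoF replicate 3, and with the GC trend removed it had 0 higher and 1 lower. The GC trend removal left 0 higher and 3 lower for neural tube and 1 and 1 for second heart field. Over the other single libraries left out, neural tube ran from 0 to 1 higher and 1 to 2 lower, second heart field from 2 to 3 higher and 1 to 2 lower, cardiomyocytes from 2 to 4 and 2 to 3, endothelium from 1 to 3 and 1 to 2, and endoderm from 0 to 2 and 0 to 1. The part of these tissues in the Dlx values was not tested.

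The genes most like the Dlx members in their pattern over the 5 libraries were found by the Euclidean distance between mean-centred log2 values, among genes with a mean of at least 50. Gene models with Gm or Rik names, names that begin with a digit and the genes that make up each pattern were left out. The 5 nearest to the mean Dlx pattern were RP24-240K8.7, Qsox1, Mrps12, Phf7 and Mir186, at distances of 0.57 to 0.67 log2 units. Qsox1 had 35.2 and 126.0 counts in the controls, against 102.5, 88.2 and 98.7 in GoF. The Dlx members make up this mean, so their closeness to it is partly built in. Dlx5 lay at 0.49 from it, Dlx6 at 0.51, Dlx2 at 0.84 and Dlx1 at 1.40. The genes nearest to the mean pattern of the 6 crest factors were Mtmr14, Napa, Rpl32, Rplp2 and Notch1, at 0.03 to 0.07. That pattern ran only from -0.49 to 0.2 log2 units, against -1.55 to 1.03 for the mean Dlx pattern. Distances were not scaled for this, so those of the 2 patterns cannot be compared. Notch1, a receptor gene, had 714.0 and 965.9 counts in the controls, against 1118.7, 1161.5 and 1093.0 in GoF. Of the 6 factors that make up the mean crest pattern, Tfap2a (0.19) and Sox9 (0.26) lay nearest to it and Twist1 (0.71) farthest.

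**Figure D5:**
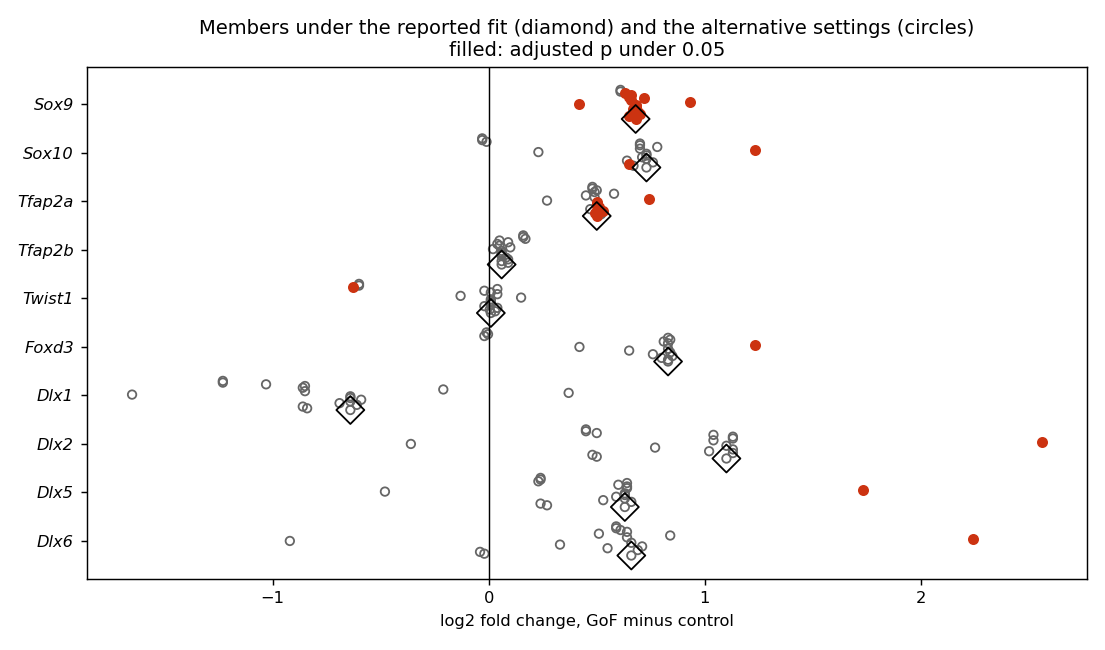
Log2 fold change of GoF over control for each member under the reported fit (diamonds) and the alternative settings (circles), filled where the adjusted p was under 0.05. The alternatives share most of their data and several nearly repeat the reported fit, so they are not separate checks. With the GC trend removed, Sox9 is not filled once the replicate block is added or GoF replicate 1 is left out. Sox9 stays between 0.42 and 0.93 and is filled in 15 of 17 alternatives, while Dlx2 runs from -0.36 to 2.56 and Dlx6 from -0.92 to 2.24.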

How the data were processed

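RNA was taken from the second heart field region at embryonic day 9.5. Per the labels' protocols, cDNA was amplified by single primer isothermal amplification from 2 ng of RNA, and 100 ng went into each library, a step that may act unevenly on transcripts of different base content. For build mm10, STAR 2.5.2, HTSeq, DESeq2 and bcl2fastq 2.17.1.14 are listed in the submitters' processing notes. Annotation, strand setting and filters: not given in the sources used here.

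The authors' deposited table holds, per gene, a normalized signal for each library and their mean. Beside these the authors give a log2 fold change with its test score. The authors' deposited p-value and its adjusted form come from their own test. Every deposited signal value was a whole multiple of 1 step per library (100.0% within 0.001 of a whole number), so the reads were recovered. Depth was 34260116 to 44384354 reads per library, amplified without molecular identifiers, so no counting intervals were computed. The lowest mean in the table was 6.1.

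With limma 3.58.1 (R 4.3.3, trend and robust), log2(normalized count + 1) was modelled for the 16794 genes averaging 10 or more, and Benjamini-Hochberg adjusted p under 0.05 was a call. Fold changes are differences of mean log2 values on that scale. A larger pseudocount shrinks them for low genes (Dlx2 1.10 with 1 and 0.77 with 8), while a single low control moves them further than it moves a ratio of mean counts. The design named all 6 samples, and 5 have a column. edgeR 4.0.16 and DESeq2 1.42.0 on the reads, other scalings, pseudocounts and filters, each library left out, a replicate block and removal of a lowess trend (span 0.3) on transcript GC content (GENCODE M21, GRCm38, the build of mm10; 96.9% of genes) were the alternatives. edgeR called 2080 genes higher and 1679 lower on the recovered reads. The fits were also run on simulated data with independent libraries and no GC trend. That run cannot show how the fits behave with a GC trend, uneven controls or a GoF library that is not separate.

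The members, lists and tests were chosen with earlier results of these data known. Named are the members, Hoxb1, detected Dlx genes and antisense RNAs, up to 3 called genes per list with the lowest adjusted p, and 5 genes nearest to each mean pattern, with Gm and Rik models left out. Other genes (Edn1, Col2a1, markers and the like) were named after their values were seen. Marker lists served as checks.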

Additional observations from a re-analysis of the deposited data

How the results depend on the processing

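Of 17 alternatives, the members called higher stayed at 2 (Sox9 and Tfap2a) with TMM scaling, both other pseudocounts, no filter and a mean of at least 50, and were 3 with DESeq2. They were 1 with edgeR, quantile normalization, the replicate block and GC trend removal, 0 with GC trend removal plus the replicate block or minus GoF replicate 1, and 1 to 7 with 1 library left out. Members called lower stayed at 0 except for 1, Twist1, with the GC trend removed. The wider lists had 10 higher and 12 lower, against 5 and 4 with the block, 4 and 6 with the GC trend removed, 0 and 1 with GoF replicate 1 also left out, 1 and 1 with both GC trend removal and block, and 5 to 19 higher and 4 to 18 lower with 1 library left out. Over all genes, 2054 were higher and 1835 lower, against 765 and 606 with the block, 506 and 542 with the GC trend removed, 52 and 66 without GoF replicate 1 as well, 73 and 90 with GC trend removal and block, and 678 to 2734 higher and 554 to 2552 lower with 1 library left out. Hoxb1 lost its call with the block (log2 fold change 0.59, adjusted p = 0.0625), with the GC trend removed (0.26), also with GoF replicate 1 left out (0.27) or the block (0.26), and ran from 0.44 to 0.74 with 1 library left out. The causes were not tested.

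Signs turned for members that were not called. With the GC trend removed alone, with GoF replicate 1 also left out, and with the block, Sox10 went to -0.01, -0.03 and -0.03, Foxd3 to -0.02, -0.003 and -0.01, and Twist1 to -0.63, -0.60 and -0.60. Twist1 was also at -0.02 with quantile normalization, and Dlx6 at -0.02 with edgeR and -0.04 with DESeq2. With 1 library left out, Twist1 ran from -0.13 to 0.15, Dlx1 from -1.65 to 0.37, Dlx2 from -0.36 to 2.56, Dlx5 from -0.48 to 1.73 and Dlx6 from -0.92 to 2.24, each range set by the 2 controls. Replicate numbers are shared by the groups, but nothing in the labels pairs them. The difference between replicates 2 and 3 in the controls correlated across 16794 genes with that in GoF at r = 0.0049. Control replicate 1 has no column, so the replicate block leaves GoF replicate 1 out of the comparison. Without the GC step, the fold changes of the block fit therefore repeat those without GoF replicate 1, and the block is no separate check. Foxd3, Dlx2, Dlx3, Dlx6, Dlx6os1 and Barx1 each had under 30 reads in at least 1 library, and the part of depth in their results was not tested.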
